A study of Equus caballus with 6 samples.

Results

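The immediate-early genes and the phosphatase gene DUSP1 were examined in the inner cell mass (ICM) and the trophectoderm (TE) of horse blastocysts. They were taken by symbol: EGR2 and DUSP1, together with EGR1, FOS, JUN, JUNB, ATF3, IER2, ZFP36 and MYC wherever the table held a row of that name. Of these 10 genes, 7 had a row among the 12270 rows (EGR2, DUSP1, EGR1, FOS, JUN, ATF3 and MYC), and JUNB, IER2 and ZFP36 were not analysed here. The 3 ICM libraries (15, 22 and 25) came from inner cell masses cleaned by immunosurgery (lysis of the outer cell layer with antiserum and complement), and the 3 TE libraries (16, 23 and 24) from trophectoderm pieces taken off mechanically. All came from day 8 blastocysts that had developed in superovulated mares and had been exposed to the protease mix Pronase, with RNA amplified from single embryo parts. No strain, age or number of mares is given, no library number is shared between the tissues, and the p-values rest on the spread between libraries, which may be partly technical. Tissue and isolation method coincide, so they cannot be told apart in any comparison.

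Immediate-early genes are transcribed within minutes of a stimulus from factors already present in the cell, without new protein synthesis. Serum response factor with its ternary complex partners, and CREB, carry the signal of the mitogen-activated protein (MAP) kinases ERK, JNK and p38 to their promoters. Their products are mostly transcription factors (the EGR zinc finger proteins, the AP-1 proteins of the FOS, JUN and ATF families, MYC), and a smaller group ends the response, such as DUSP1, a nuclear phosphatase that removes phosphate from p38, JNK and ERK. Their mRNAs are short-lived and are also known to rise when tissues are handled and taken apart. In the trophoblast, ERK signalling is part of normal growth, while in the ICM it takes part in setting apart epiblast and hypoblast.

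Values are RPKM (reads per kilobase, with depth scaled out), and the libraries held 6526212 to 10686659 reads in the genes of the table. The test covered the 9436 genes that reached 1 RPKM in 3 or more libraries. Over these genes, ICM 25 correlated with ICM 15 and 22 at 0.864 and 0.895 (Pearson r of log2(RPKM + 1)). Those libraries had 0.942 with each other and TE libraries 0.976 to 0.980, so ICM 25 stood apart from the rest of its tissue. With TE 16, 23 and 24, ICM 25 correlated at 0.902, 0.904 and 0.897, above its values with ICM 15 and 22. ICM 15 and 22 correlated with TE libraries at 0.892 to 0.934. Of the epiblast markers 3 of 5 tested (NANOG, KLF4 and GDF3) were called higher in ICM, and of the hypoblast markers 1 of 7 (PDGFRA). Of the trophectoderm markers 4 of 7 were called higher in TE, where 0.933% of all genes tested were called on each side. NANOG and GDF3 passed the filter only through the ICM libraries, where they were high, so their share cannot be set against that of all genes. The epiblast markers summed to 145, 142 and 59.0 RPKM in ICM 15, 22 and 25 and 45.4 to 72.7 RPKM in TE, and the hypoblast markers to 83.4, 80.8 and 24.8 RPKM in ICM 15, 22 and 25 and 23.0 to 32.3 RPKM in TE. ICM 25 thus lay within the TE range for both sums. SOX2 had no read in any TE library and 84, 115 and 10 reads in ICM 15, 22 and 25. The summed level of the 8 trophectoderm markers was 49.8, 77.9 and 50.2 RPKM in ICM 15, 22 and 25 and 150 to 192 RPKM in TE, and here ICM 25 lay with the other ICM libraries. Of 15 blood and immune markers 5 had a row, summing to 5.39 to 5.69 RPKM in ICM and 2.33 to 2.87 RPKM in TE, and of 9 fibroblast and endothelial markers only COL1A2 did, at 9.46, 6.07 and 0.346 RPKM in ICM 15, 22 and 25 and at most 0.0363 RPKM in TE. Of 10 cumulus and oviduct markers 3 had a row, summing to 23.0 to 37.7 RPKM in ICM and 18.5 to 26.0 RPKM in TE, most of it STAR, which overlapped. The other 2, below the filter and not tested, lay higher in every ICM library than in any TE library and highest in ICM 25. PTX3 was at 1.04, 0.631 and 6.87 RPKM in ICM 15, 22 and 25 and 0.101 to 0.389 RPKM in TE, and OVGP1 at 1.14, 0.357 and 2.72 RPKM in ICM 15, 22 and 25 and 0.129 to 0.256 RPKM in TE. The part of these cells in the results was not tested.

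As a group, 6 of the 7 genes had a lower mean in ICM than in TE, and ATF3 had a higher one. Of all genes tested, 64.7% had a lower mean in ICM. EGR2, FOS and DUSP1 passed the test as lower in ICM (limma on log2(RPKM + 1), Benjamini-Hochberg adjustment over all genes tested), EGR1 and MYC lay lower in ICM in every library without passing, and JUN and ATF3 overlapped between the tissues. The share of all genes called higher in TE was 0.933%, and the same share, 0.933%, was called higher in ICM. In counts, 88 genes each were called on the ICM side and the TE side, which became 126 and 83 with median of ratios rescaling, 129 and 77 with quantile normalization and 113 and 66 by voom on the recovered reads. The median log2 difference of all genes, ICM minus TE, was -0.15 and became -0.03 with either rescaling, and none of the 7 directions turned. Values of the tissues did not overlap, with ICM lower, for 5 of the 7 genes, against 17.8% of all genes tested. The genes were chosen with earlier results of these data known, so these counts describe them and are no test of them as a group. Fewer cells with a given mRNA and less of that mRNA per cell cannot be told apart in such samples.

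**Figure D1:**
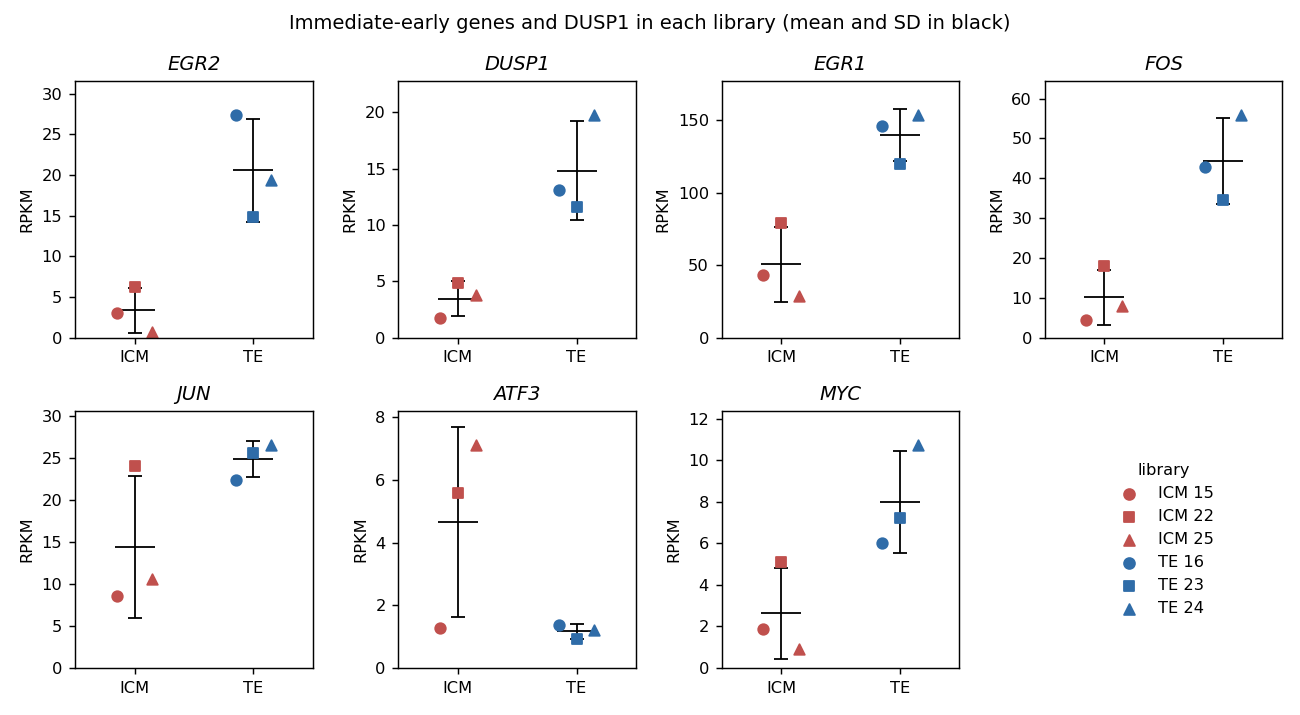
RPKM of the 7 genes in each library (y axes start at 0 and differ between panels), with ICM in red on the left and TE in blue on the right; symbols mark libraries and black bars the mean and SD (n = 3 each). All ICM values of EGR2, DUSP1, EGR1, FOS and MYC lie below all TE values, JUN overlaps through ICM 22 at 24.1 RPKM, and ATF3 is high in ICM 22 and 25 at 5.60 and 7.13 RPKM.

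The EGR genes encode zinc finger activators that bind the same GC-rich site. EGR2, also known as Krox20 and best known in the mouse for hindbrain segments and myelin, was at 3.03, 6.26 and 0.759 RPKM in ICM 15, 22 and 25 and at 27.4, 14.9 and 19.4 RPKM in TE 16, 23 and 24. Every TE library lay above every ICM library, the lowest TE value being 2.38 times the highest ICM value. The means were 3.35 ± 2.77 RPKM in ICM and 20.6 ± 6.35 RPKM in TE (SD, n = 3 each), a log2 difference of -2.50 (ICM minus TE, SE 0.48, 95% confidence interval -3.58 to -1.41, limma adjusted p = 0.045). This was the 4th lowest difference among the 9436 genes tested. The deposited coordinates, whose genome build is not given in the sources used here, place EGR2 on chromosome 1 from 52016967 to 52020189.

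The ICM libraries differed widely among themselves in EGR2, by 8.25 times between ICM 22 and ICM 25, against 1.84 times between the extreme TE libraries. The value of ICM 25 rested on 34 reads (exact 95% Poisson interval 23.5 to 47.5, counting error only), and that of ICM 15 on 138 reads (116 to 163). Without ICM 25 the log2 difference was -1.96 (limma adjusted p = 0.011) and without ICM 22 it was -2.98 (adjusted p = 0.036). The call was lost without ICM 15 (adjusted p = 0.12) and without TE 16, 23 or 24 (adjusted p = 0.20, 0.17 and 0.17), while the difference stayed between -2.70 and -2.28. Those fits without a TE library called 0, 1 and 1 of the 9436 genes. It was also lost with a pseudocount of 0.1 (adjusted p = 0.070, log2 difference -2.96) and with no filter (adjusted p = 0.053).

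EGR1, the family member induced in most cells, was the most abundant of the 7 genes in every library. It was at 43.2, 79.4 and 29.1 RPKM in ICM 15, 22 and 25 and at 146, 120 and 154 RPKM in TE 16, 23 and 24. The groups did not overlap, and EGR1 lay above 93.8% of the genes tested in ICM and above 97.5% in TE. Means were 50.5 ± 25.9 RPKM in ICM and 140 ± 18.0 RPKM in TE, and the log2 difference of -1.56 (SE 0.35) missed the threshold (limma adjusted p = 0.069). It passed with median of ratios rescaling (adjusted p = 0.035), quantile normalization (0.036), library weights (0.022) and voom on the recovered reads (0.035), and without ICM 22 (0.037) or ICM 25 (0.026). EGR1 is placed on chromosome 14 from 38039967 to 38043816.

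EGR3 was at 3.57, 7.85 and 1.72 RPKM in ICM 15, 22 and 25 and at 12.9, 7.83 and 12.9 RPKM in TE 16, 23 and 24. Its groups overlapped at ICM 22 and TE 23, and it was not called (log2 difference -1.32, SE 0.42, limma adjusted p = 0.16). EGR4 was not analysed here. The corepressors that bind EGR proteins had the higher mean in ICM: NAB1 was at 3.75 ± 1.0 RPKM in ICM and 2.35 ± 0.28 RPKM in TE (adjusted p = 0.39). NAB2, below the filter and therefore not tested, had 29, 62 and 7 reads in ICM 15, 22 and 25 and 2, 1 and 6 reads in TE 16, 23 and 24.

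RPKM is per length of gene, so the family members can be set beside each other within a library, where the scaling between libraries cancels. EGR3 stood above EGR2 in all 3 ICM libraries, with EGR2 at 0.848, 0.797 and 0.441 times EGR3 in ICM 15, 22 and 25. EGR2 stood above EGR3 in all 3 TE libraries, at 2.12, 1.90 and 1.51 times EGR3 in TE 16, 23 and 24. EGR2 relative to EGR1 was likewise lower in ICM, at 0.0702, 0.0789 and 0.0261 in ICM 15, 22 and 25 against 0.187, 0.124 and 0.126 in TE 16, 23 and 24. EGR3 relative to EGR1 overlapped, at 0.0591 to 0.0989 in ICM and 0.0655 to 0.0882 in TE. These pairs, and the pairs given below, were chosen after the values were seen and carry no test.

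**Figure D2:**
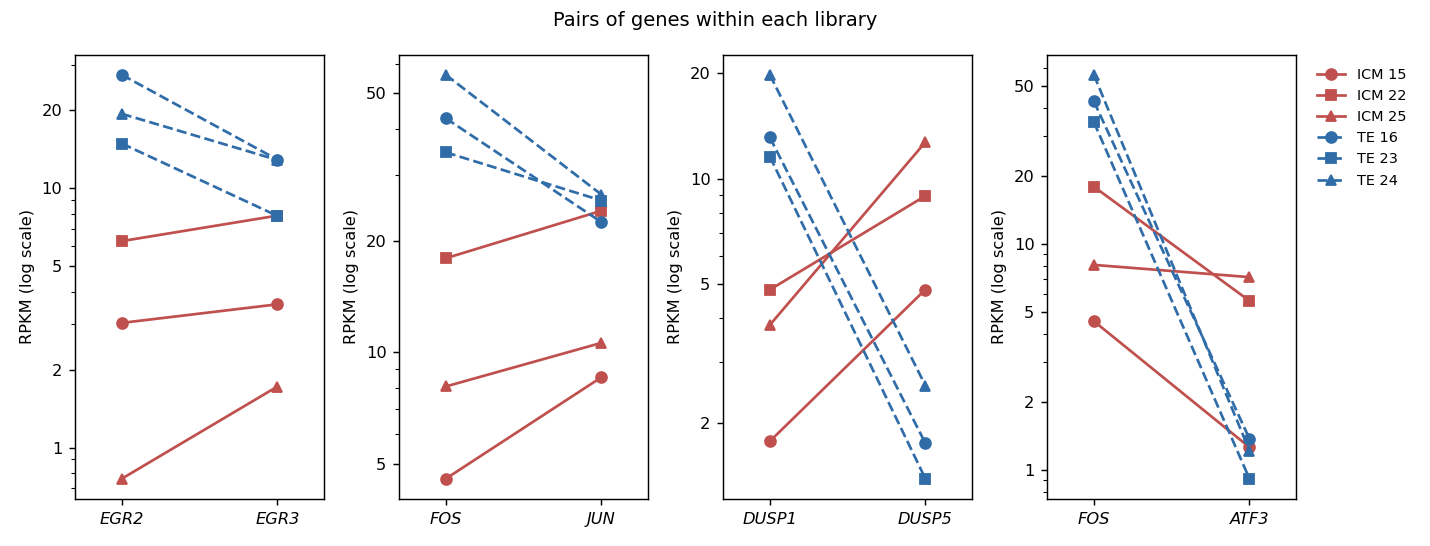
RPKM of 4 pairs of genes in each library (log y axes that differ between panels), ICM in red with solid lines and TE in blue with dashed lines; each line joins the genes of 1 library. The lines for EGR2 and EGR3, FOS and JUN, and DUSP1 and DUSP5 slope in opposite directions in the tissues, and the fall between FOS and ATF3 is steeper in every TE library than in any ICM library. The slopes of FOS and JUN depend on the counted length of JUN, 372 bases.

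FOS and JUN encode the partners of the classical AP-1 dimer, in which FOS cannot pair with itself and JUN can. FOS was at 4.55, 17.9 and 8.07 RPKM in ICM 15, 22 and 25 and at 42.7, 34.6 and 56.0 RPKM in TE 16, 23 and 24. Every TE library lay above every ICM library, and ICM 22 was the highest of its tissue. The means of 10.2 ± 6.92 RPKM in ICM and 44.5 ± 10.8 RPKM in TE gave a log2 difference of -2.18 (SE 0.42, 95% confidence interval -3.14 to -1.22, limma adjusted p = 0.045), the 10th lowest of all genes tested. FOS lay above 66.7% of the genes tested in ICM and above 91.6% in TE. Its call was lost without ICM 15 (adjusted p = 0.11), without TE 16, 23 or 24 (0.19, 0.17 and 0.19), with a pseudocount of 0.1 (0.054), no filter (0.053) and a filter of 5 RPKM (0.050, just above the threshold). FOS is placed on chromosome 24 from 20677112 to 20679718.

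JUN was at 8.55, 24.1 and 10.6 RPKM in ICM 15, 22 and 25 and at 22.4, 25.6 and 26.6 RPKM in TE 16, 23 and 24. ICM 22 exceeded TE 16, so the tissues overlapped, and the log2 difference of -0.88 (SE 0.36, limma adjusted p = 0.26) was not called. The row for JUN, on chromosome 2 from 1293348 to 1327666, spans 34319 bases, but the length recovered from its RPKM was 372 bases, so it describes a short stretch and its level is less certain than its direction between libraries. With that limit, JUN exceeded FOS by RPKM in each ICM library and FOS exceeded JUN in each TE library. The quotient of FOS over JUN was 0.532, 0.744 and 0.763 in ICM 15, 22 and 25 and 1.91, 1.35 and 2.10 in TE 16, 23 and 24. In reads FOS exceeded JUN in every library. ICM 15, 22 and 25 had 145, 694 and 253 reads for FOS and 78, 267 and 95 for JUN. TE 16, 23 and 24 had 1451, 862 and 1845 for FOS and 218, 183 and 251 for JUN.

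ATF3, a stress-induced member of the ATF family that often represses its targets, went the other way from the rest. It was at 1.26, 5.60 and 7.13 RPKM in ICM 15, 22 and 25 and at 1.37, 0.914 and 1.22 RPKM in TE 16, 23 and 24. ICM 22 and 25 were high, while ICM 15 lay within the TE range. The means were 4.66 ± 3.04 RPKM in ICM and 1.17 ± 0.23 RPKM in TE, with a log2 difference of 1.20 (SE 0.44, 95% confidence interval 0.19 to 2.20, limma adjusted p = 0.22), which was not called. The difference remained positive under all 12 other settings in which ATF3 was tested, between 0.84 (without ICM 25) and 1.81 (voom), with adjusted p of 0.051 to 0.55. In TE the ATF3 level lay above only 6.79% of the genes tested, and in ICM above 43.2%.

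ATF3 relative to FOS separated the tissues without overlap. The quotient was 0.277, 0.312 and 0.883 in ICM 15, 22 and 25 and 0.0321, 0.0264 and 0.0217 in TE 16, 23 and 24. ICM 15 thus shared its high quotient with the other ICM libraries although its ATF3 level was that of TE, its FOS level being the lowest of all. ATF3 is placed on chromosome 5 from 26065349 to 26077751. Another list of genes tied to stress held heat shock genes, HSF1, HSF2, ATF4 and DDIT3. Of its 14 genes tested, 0 were called by limma or by voom (1.87% and 1.9% of all genes). An unadjusted p under 0.05 in limma was found for 0, against 16.9% of all genes. The 2 smallest p in that list belonged to HSPH1 and HSPA8 (limma adjusted p = 0.33 and 0.49). HSPH1 was at 48.8 ± 7.13 RPKM in ICM and 69.3 ± 9.60 RPKM in TE. ICM 25 was the lowest ICM library for 9 of these 14 genes (64.3%, against 61.7% of all genes tested) and the highest for 3 (21.4%, against 19.5%). HSPA8, HSPD1, HSPE1 and HSP90AB1 were among the 9, while HSPA1A and DNAJB1, chosen after their values were seen, were among the 3, like ATF3. HSPA1A was at 7.0, 24.9 and 56.9 RPKM in ICM 15, 22 and 25 and 14.7 to 21.8 RPKM in TE, and DNAJB1 at 2.17, 6.24 and 13.9 RPKM in ICM 15, 22 and 25 and 2.97 to 4.44 RPKM in TE. Their part in the ATF3 values was not tested.

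The other FOS genes were low. FOSL2 was at 2.20 ± 0.44 RPKM in ICM and 1.21 ± 0.17 RPKM in TE, higher in every ICM library than in any TE library, without passing (log2 difference 0.53, SE 0.23, limma adjusted p = 0.30). FOSB and FOSL1 stayed below the filter. FOSB was at 0.0271 to 0.804 RPKM in ICM and 0.694 to 1.02 RPKM in TE, and FOSL1 at 0, 0.424 and 1.38 RPKM in ICM 15, 22 and 25 and at most 0.0907 RPKM in TE.

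MYC, the growth-promoting transcription factor that pairs with MAX, was at 1.89, 5.11 and 0.898 RPKM in ICM 15, 22 and 25 and at 6.03, 7.25 and 10.8 RPKM in TE 16, 23 and 24. The groups did not overlap, but ICM 22 and TE 16 lay close, at a quotient of 1.18. The means were 2.63 ± 2.20 RPKM in ICM and 8.01 ± 2.45 RPKM in TE, and the log2 difference of -1.45 (SE 0.42, 95% confidence interval -2.41 to -0.49) was not called (limma adjusted p = 0.13), nor under any other setting (adjusted p = 0.056 to 0.42). MYC is placed on chromosome 9 from 69346347 to 69348753.

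By RPKM, MYC was the minor MYC gene in both tissues. Its paralog MYCN was at 33.7, 32.7 and 4.45 RPKM in ICM 15, 22 and 25 and at 25.3, 18.7 and 32.3 RPKM in TE 16, 23 and 24, above MYC in all 6 libraries. MYC over MYCN was 0.056, 0.156 and 0.202 in ICM 15, 22 and 25 and 0.239, 0.388 and 0.333 in TE 16, 23 and 24. These quotients depend on the counted gene lengths. In reads the genes lay closer, at 62, 204 and 29 for MYC and 501, 591 and 65 for MYCN in ICM 15, 22 and 25. In TE 16, 23 and 24 they had 211, 186 and 365 reads for MYC and 400, 217 and 497 for MYCN. MYCN itself was not called (adjusted p = 0.77), its low value in ICM 25 setting that library apart. The partner MAX overlapped, at 8.83 to 14.0 RPKM in ICM and 8.67 to 13.5 RPKM in TE. Of the 8 genes of the MYC network tested, 0 were called by limma or by voom (1.87% and 1.9% of all genes), 1 (12.5%) had an unadjusted p under 0.05 in limma, against 16.9% of all genes, and MYC itself and MLX (adjusted p = 0.45) had the smallest p.

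DUSP1 ends MAP kinase signals and is itself an immediate-early gene. It was at 1.78, 4.82 and 3.82 RPKM in ICM 15, 22 and 25 and at 13.1, 11.6 and 19.8 RPKM in TE 16, 23 and 24. The lowest TE library held 2.40 times the RPKM of the highest ICM library. Means of 3.47 ± 1.55 RPKM in ICM and 14.8 ± 4.38 RPKM in TE gave a log2 difference of -1.86 (SE 0.34, 95% confidence interval -2.62 to -1.09, limma adjusted p = 0.038), the 31st lowest of all genes tested. DUSP1 is placed on chromosome 14 from 8675899 to 8677707.

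The DUSP1 call held without ICM 25 (log2 difference -1.94, limma adjusted p = 0.014). It was lost without ICM 15 (-1.55, adjusted p = 0.089), without ICM 22 (-2.08, adjusted p = 0.056) and without TE 16, 23 or 24 (-1.92, -2.01 and -1.64, adjusted p = 0.16, 0.17 and 0.17). It held under the 7 settings that kept all libraries, with adjusted p of 0.0090 to 0.049. Unlike EGR2, EGR1 and MYC, DUSP1 was not lowest in ICM 25 but in ICM 15, with 44 reads there (exact 95% Poisson interval 31.97 to 59.1), and FOS, JUN and ATF3 were lowest of their tissue in ICM 15 as well.

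**Figure D3:**
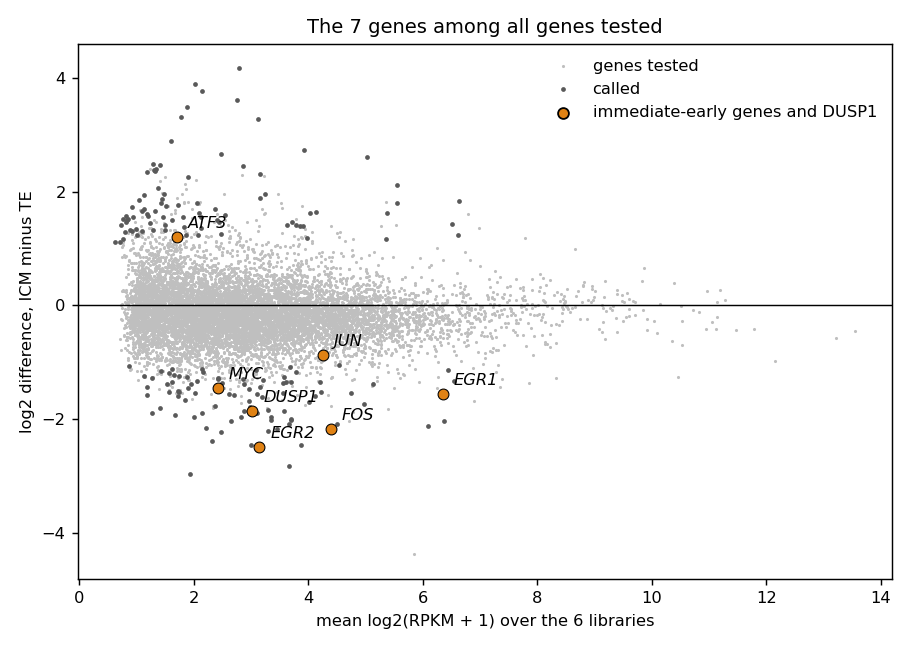
Log2 difference of each gene tested (y axis, ICM minus TE) against its mean log2(RPKM + 1) over the 6 libraries (x axis), with called genes dark and the 7 genes in orange. EGR2 at -2.50 lies at the lower edge of all genes, EGR1 is the most abundant of the 7, and ATF3 at 1.20 is alone above 0.

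The MAP kinase phosphatases did not move together. Of 10 in the list 7 had a row and 5 were tested. DUSP1 was called higher in TE and DUSP5 higher in ICM, where 0.933% of all genes were called on each side. Of the 5, 3 (60%) had an unadjusted p under 0.05 in limma, against 16.9% of all genes. DUSP1, chosen with earlier results of these data known, was among the 3, so this share is no test of the list. DUSP5, a nuclear phosphatase specific to ERK, was at 4.82, 8.94 and 12.7 RPKM in ICM 15, 22 and 25 and at 1.75, 1.39 and 2.56 RPKM in TE 16, 23 and 24 (log2 difference 1.69, SE 0.34, limma adjusted p = 0.047). DUSP5 exceeded DUSP1 in each ICM library and DUSP1 exceeded DUSP5 in each TE library. DUSP1 over DUSP5 was 0.369, 0.539 and 0.300 in ICM 15, 22 and 25 and 7.48, 8.33 and 7.73 in TE 16, 23 and 24.

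The DUSP5 call rested on the setting more than that of DUSP1. It was lost with a pseudocount of 0.1 (limma adjusted p = 0.054), no filter (0.061), either rescaling (0.060 and 0.061) and voom (0.075), without ICM 15 (0.051), ICM 22 (0.10) or TE 16, 23 or 24 (0.22, 0.27 and 0.15). DUSP6, the cytoplasmic ERK phosphatase, overlapped at 5.72, 1.77 and 1.74 RPKM in ICM 15, 22 and 25 and 3.91 to 4.59 RPKM in TE (adjusted p = 0.54). DUSP7 was at 5.55 to 14.6 RPKM in ICM and 16.3 to 28.8 RPKM in TE (adjusted p = 0.25), and DUSP16 was at 7.69 ± 2.34 RPKM in ICM and 5.26 ± 1.02 RPKM in TE (adjusted p = 0.46). DUSP8 and DUSP9 were below the filter.

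The genes that carry the signal to immediate-early promoters gave 0 calls by limma, where 1.87% of all genes were called. The 25 kinases tested ran from the RAF genes through ERK, JNK and p38 to the kinases they activate, and 3 of them (12.0%) had an unadjusted p under 0.05, against 16.9% of all genes, while 1 was called by voom (1.9% of all genes). Of the 25, 19 had a lower mean in ICM, and the median log2 difference was -0.19, beside -0.15 over all genes tested, of which 64.7% were lower in ICM. The smallest p belonged to RPS6KA5, encoding MSK1, which phosphorylates CREB and histone H3 at immediate-early genes. It was at 1.51, 1.32 and 0.761 RPKM in ICM 15, 22 and 25 and at 3.33, 4.11 and 4.22 RPKM in TE 16, 23 and 24 (log2 difference -1.17, SE 0.25, limma adjusted p = 0.054). It passed with either rescaling (0.044 and 0.047), library weights (0.022), voom (0.037) and without ICM 25 (0.023). MAPKAPK3, a kinase downstream of p38, was at 0.283, 3.21 and 0.489 RPKM in ICM 15, 22 and 25 and 2.57 to 3.54 RPKM in TE (adjusted p = 0.26), and passed without ICM 22 (0.049).

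Among 13 serum response factor and CREB regulators tested, 0 were called by limma or by voom (1.87% and 1.9% of all genes), 2 (15.4%) had an unadjusted p under 0.05 in limma, against 16.9% of all genes, and the median log2 difference was -0.16. SRF itself overlapped, at 24.6, 24.6 and 12.3 RPKM in ICM 15, 22 and 25 and 20.6 to 23.2 RPKM in TE (log2 difference -0.16, SE 0.30, 95% confidence interval -0.84 to 0.52). CRTC3, a coactivator of CREB, was at 2.24, 2.46 and 3.07 RPKM in ICM 15, 22 and 25 and at 6.22, 6.61 and 6.21 RPKM in TE 16, 23 and 24 (log2 difference -1.04, SE 0.23, limma adjusted p = 0.064). It passed without ICM 25 and with library weights (both adjusted p = 0.012). MKL2, an actin-regulated coactivator of SRF, was at 3.87 to 6.18 RPKM in ICM and 8.0 to 11.1 RPKM in TE (adjusted p = 0.20). CREB1 was at 9.48 to 14.4 RPKM in ICM and 7.31 to 8.79 RPKM in TE (adjusted p = 0.36).

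Short-lived immediate-early mRNAs are cleared by proteins that bind AU-rich elements and by the CCR4-NOT deadenylase. ZFP36L1, a paralog of ZFP36, overlapped at 17.2 to 33.2 RPKM in ICM and 24.1 to 30.0 RPKM in TE (limma adjusted p = 0.81). Of 19 genes of this kind tested 0 were called by limma or by voom (1.87% and 1.9% of all genes), 2 (10.5%) had an unadjusted p under 0.05 in limma, against 16.9% of all genes, and the median log2 difference was -0.08. The smallest p belonged to the CCR4-NOT subunits CNOT2 (adjusted p = 0.17) and CNOT6L (adjusted p = 0.28), both lower in every ICM library than in any TE library.

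The wider immediate-early list, which contains the 7 genes, held 47 symbols, 36 with a row and 30 tested. It gave 4 calls higher in TE (EGR2, FOS, DUSP1 and PTGS2) and 1 higher in ICM (TIPARP), where 0.933% of all genes were called on each side. Its members went both ways: 18 had a lower and 12 a higher mean in ICM, where 64.7% of all genes tested had a lower one. The median log2 difference of the list was -0.28, beside -0.15 over all genes tested. An unadjusted p under 0.05 in limma was found for 15 of the 30 (50%), against 16.9% of all genes. Among the 15 were all 7 genes, and also NR4A2 and NR4A3, which were tested only because they reached the filter in TE. The list was chosen with earlier results of these data known, so this share is no test of it. Tissues did not overlap for 10 members with ICM lower and for 3 with ICM higher, where all genes gave 17.8% and 6.81%. Of the 10, NR4A2 and NR4A3 passed the filter only through the TE libraries, so their lack of overlap was fixed by the filter. The calls higher in TE became 7 without ICM 25 (adding EGR1, SGK1 and NFKBIA, where 5.62% of all genes were called on that side), 2 with a pseudocount of 0.1 or no filter, and 0 without ICM 15, TE 16, TE 23 or TE 24. TIPARP was not called without these same 4 libraries.

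PTGS2, the inducible cyclooxygenase of prostaglandin synthesis, was at 28.9, 50.4 and 43.8 RPKM in ICM 15, 22 and 25 and at 170, 242 and 112 RPKM in TE 16, 23 and 24 (log2 difference -2.03, SE 0.34, limma adjusted p = 0.029). Its call was also lost without ICM 22 (adjusted p = 0.056). TIPARP, which adds ADP-ribose and restrains the aryl hydrocarbon receptor, was at 25.9, 29.5 and 35.0 RPKM in ICM 15, 22 and 25 and at 8.86, 8.01 and 9.80 RPKM in TE 16, 23 and 24 (log2 difference 1.65, SE 0.23, limma adjusted p = 0.020). The orphan nuclear receptors NR4A2 and NR4A3 were lower in every ICM library than in any TE library without being called. NR4A2 was at 0.245 to 0.622 RPKM in ICM and 1.31 to 1.72 RPKM in TE (limma adjusted p = 0.16). NR4A3 was at 0.222 to 0.861 RPKM in ICM and 1.31 to 2.09 RPKM in TE (limma adjusted p = 0.15). Both reached the filter of 1 RPKM only in TE, which fixed this order in advance. KLF6 lay on the other side, at 12.2 to 23.6 RPKM in ICM and 6.71 to 11.7 RPKM in TE (adjusted p = 0.18). Several members overlapped widely, such as MCL1 (log2 difference -0.03, 95% confidence interval -0.55 to 0.49).

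**Figure D4:**
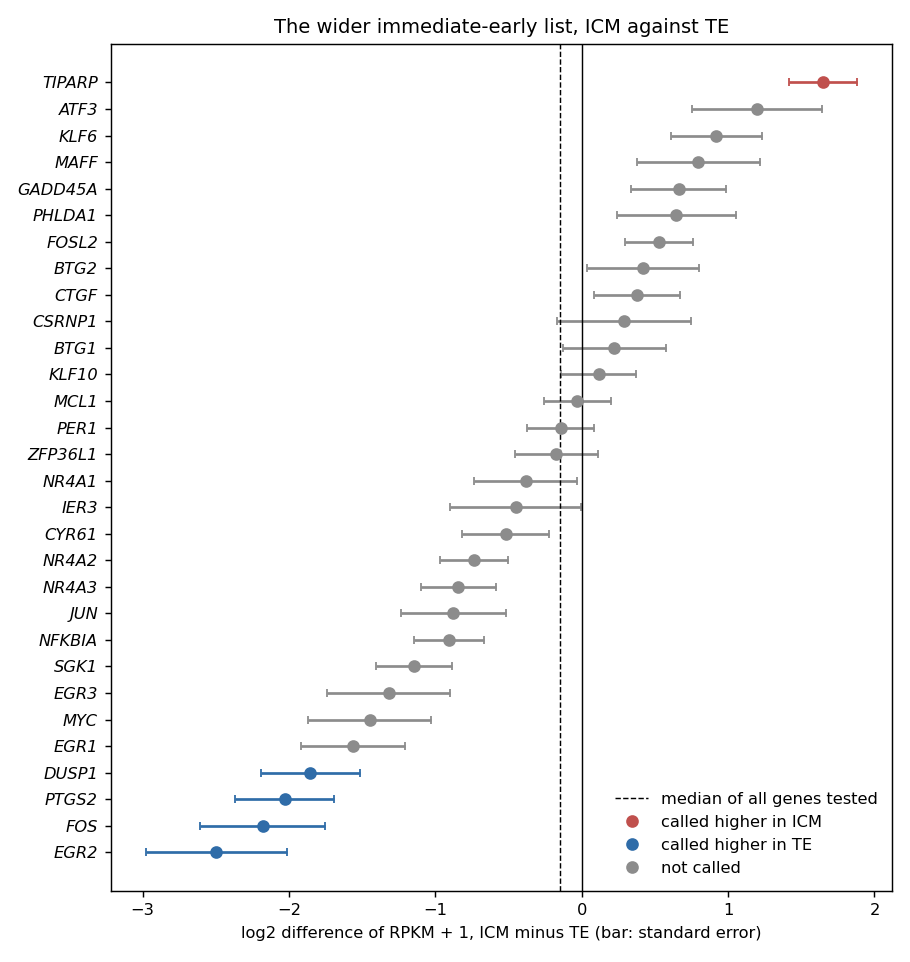
Log2 differences (x axis, ICM minus TE, with standard error) of the 30 tested members of the wider immediate-early list, sorted, with called genes in colour and the median of all genes tested as a dashed line. EGR2, FOS, PTGS2 and DUSP1 lie at the TE end and TIPARP at the ICM end, next to ATF3, which was not called.

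The libraries of a tissue were not interchangeable for these genes. ICM 15 was the lowest ICM library for 21 of the 30 tested members of the wider list (70.0%), against 26.7% of all genes tested, and ICM 25 was the lowest for 8 (26.7%), against 61.7% of all genes. ICM 25 was the highest for 12 members (40.0%), against 19.5% of all genes, among them ATF3, FOSL2, GADD45A, MAFF and CSRNP1. ICM 22 was the highest for 6 of the 7 genes, all but ATF3, and for 47.5% of all genes. ICM 22 also held the largest trophectoderm marker sum of the ICM libraries, 77.9 RPKM, and the part of this in its values was not tested. Among TE libraries, TE 24 was the highest for 5 of the 7 genes, against 51.3% of all genes, and EGR2 and ATF3 were highest in TE 16.

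The genes whose log2(RPKM + 1) followed EGR2 most closely over the 6 libraries were TCF4 (Pearson r = 0.997), MBD4 (0.994), RBL1 (0.994), GORASP2 (0.991) and SEC13 (0.990). Their log2 differences were small, -0.80 to -0.30, and none was called, so likeness of pattern did not mean likeness of size. EGR1 ranked 9th at r = 0.987, while MYC (0.921), FOS (0.896), DUSP1 (0.846) and JUN (0.820) were further off and ATF3 was at -0.692. DUSP1 was followed most closely by HYOU1 (0.999), the immediate-early gene NR4A2 (0.996), a row with a number in place of a symbol (0.994), the homeobox gene DLX6 (0.992) and PACSIN2 (0.990), and FOS ranked 18th at 0.982. DLX6 was at 0.348, 1.83 and 1.13 RPKM in ICM 15, 22 and 25 and at 4.12, 4.90 and 7.62 RPKM in TE 16, 23 and 24 (limma adjusted p = 0.047). All points share the same 6 libraries and the split by tissue, which alone gives high correlations.

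In the authors' deposited table, which tested normalized counts with DESeq, the adjusted p was 2.78e-15 for EGR2, 6.92e-12 for FOS, 5.62e-07 for DUSP1, 3.15e-06 for EGR1, 1.17e-05 for ATF3 and 0.0010 for MYC. JUN did not pass in the authors' deposited table (adjusted p = 0.15). The authors' deposited table placed 5.96% of its rows under 0.05 as higher in TE and 10.7% as higher in ICM. The deposited folds, ICM over TE, were 0.163 for EGR2, 0.229 for FOS, 0.234 for DUSP1, 0.329 for MYC, 0.361 for EGR1, 0.578 for JUN and 3.99 for ATF3 in the authors' deposited table. The order of the 7 genes by that fold was the same as by log2(RPKM + 1) except for MYC and EGR1, which changed places.

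**Figure D5:**
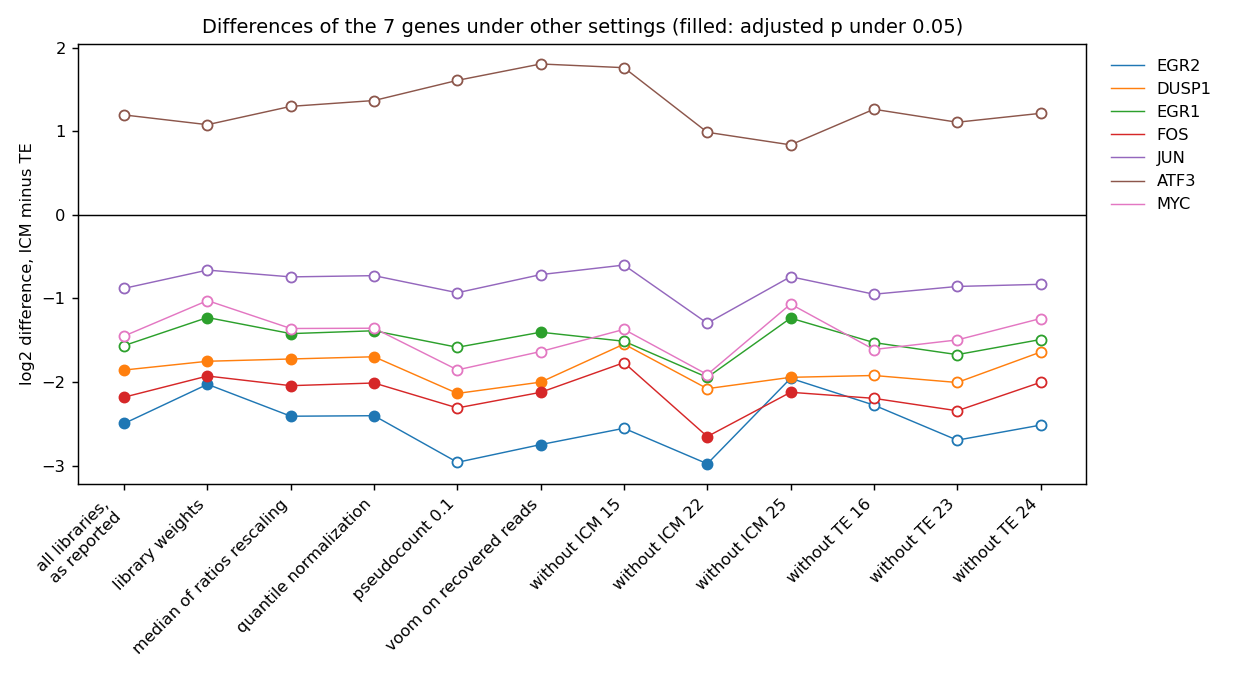
Log2 difference (y axis, ICM minus TE) of each of the 7 genes as reported and under 11 other settings (x axis), with filled points at an adjusted p under 0.05. ATF3 stays above 0 and the other 6 below 0 throughout, EGR2 ranges between -2.98 and -1.96, and no point is filled when a TE library is left out.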

How the data were processed

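RNA of 3 ICM and 3 TE samples was compared without pairing, since no library number is shared and the labels do not tell whether parts shared an embryo. Per the file headers the authors deposited RPKM per gene and library, with DESeq results: mean signal (baseMean, normalized counts), fold as a ratio, its log2 value, p-value and adjusted p-value. FastQC and DESeq were used per the submitters' processing notes; aligner, genome build and strand were not given in the sources used here. Labels disagree on the Ovation amplification kit (V1 in the sample records, V2 in the series design).

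RPKM times a factor per gene (baseMean over mean RPKM) gave whole reads within 0.001 for 100% of values up to 1000 reads, and whole gene lengths within 0.01 bases for 100% of rows. Reads carry no molecular identifiers, so intervals cover counting error only.

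Genes reaching 1 RPKM in 3 or more libraries were tested on log2(RPKM + 1), which understates the change of low genes (limma 3.58.1, R 4.3.3, lmFit and eBayes with trend, two-sided, Benjamini-Hochberg at 0.05). The fit was tested on simulated data. Each result was recomputed with other low-value settings (pseudocount 0.1; all rows; minimum 5 RPKM), median of ratios rescaling, quantile normalization, library weights, voom on the recovered reads and without each library. Named beside the 7 genes were called members of the lists, the 2 members of each list with the smallest p, and the 5 genes closest in pattern to EGR2 and to DUSP1. Further list members were named for the overlap of their values or as relatives of the 7, after their values were seen. Members and lists were chosen with earlier results of these data known. Sequences were not used here.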

Additional observations from a re-analysis of the deposited data

How the results depend on the processing

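No paired analysis was made, because the ICM and TE libraries share no replicate number. The labels do not tell whether ICM and TE parts came from the same embryos, and the unpaired test ignores any such sharing. EGR2, DUSP1, EGR1, FOS, JUN, ATF3 and MYC kept their direction under every alternative in which they were tested. The 176 calls over all genes became 112 with a pseudocount of 0.1, 760 with library weights, 114 with all rows tested and 81 with a filter of 5 RPKM, and 0 to 1086 when 1 library was left out. The EGR2 call was lost with a pseudocount of 0.1 (log2 difference -2.96) and with no filter (-2.50), and its difference was -2.98 to -1.96 with 1 library left out. DUSP1 was at -2.08 to -1.55 with 1 library left out. Of EGR1, FOS, JUN, ATF3 and MYC, 1 was called, 0 with a pseudocount of 0.1, with all rows or with 5 RPKM as the filter, 2 (FOS and EGR1) with median of ratios rescaling, quantile normalization, library weights or voom, and 0 to 2 with 1 library left out. In the wider immediate-early list the 4 calls higher in TE became 2 with all rows tested, 2 with a pseudocount of 0.1 and 7 with library weights, and 0 to 7 with 1 library left out, and the 1 call higher in ICM became 0 to 1. The cause of these shifts was not tested. ICM 25 was the library whose absence raised the number of calls most. With 3 libraries a tissue, 2 remain in a tissue when 1 is left out. The values of EGR2 and MYC in ICM 25 rest on few reads, 34 and 29.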
